A study of Rattus norvegicus with 20 samples.

Results

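The miR-200 family was followed in rat kidney as 6 miRNAs of the 719 rat miRNAs on the array. They are the guide strands rno-miR-200b-3p, rno-miR-200a-3p, rno-miR-429, rno-miR-200c-3p and rno-miR-141-3p, and the passenger strand rno-miR-200a-5p, the other arm of the miR-200a hairpin. The members were taken by name from the scanner files, though they and the tests were chosen with earlier results of these data known. Male Wistar rats of 80 to 100 g had been given aristolochic acid I (AAI, a plant nephrotoxin that injures the proximal tubule) at 40 mg/kg by intraperitoneal injection, and their kidneys were taken on day 2, day 4 or day 6, with 5 arrays per time. The 5 control kidneys came from rats given the vehicle alone, PEG400 and water in equal parts, and were taken on day 6, so the comparisons of day 2 and day 4 with vehicle also differ in time. Each array measured the total RNA of a kidney in 1 colour. The labels do not say whether each kidney came from a separate animal, so p-values measure the spread between these kidneys.

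The miR-200 family is a textbook group of epithelial miRNAs. Its members repress ZEB1 and ZEB2, transcription factors that shut off E-cadherin, and ZEB1 and ZEB2 in turn repress the family's genes. Loss of the family accompanies the passage of epithelial cells to a mesenchymal state, which is one reason it is studied in the injured and scarring kidney tubule. The members are made from 2 primary transcripts and carry 2 seeds, the seed being the stretch (bases 2 to 8) that pairs with target mRNAs.

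In the RefSeq miRNA table on GRCr8, 3 of the 6 members had a mature sequence. The following show the 2 seeds of the guide strands and the unrelated seed of the passenger strand, with bases 2 to 8 in capitals, 5′ to 3′:
rno-miR-200c-3p: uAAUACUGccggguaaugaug
rno-miR-141-3p: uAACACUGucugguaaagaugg
rno-miR-200a-5p: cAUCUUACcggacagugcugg

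Counted from the 5′ end, the seeds of rno-miR-200c-3p and rno-miR-141-3p differ by U4C. The seed letters of rno-miR-200c-3p occur 1 time in each of the hairpins Mir200b, Mir429 and Mir200c, and those of rno-miR-141-3p occur 1 time in each of Mir200a and Mir141. Each cluster thus holds both seeds, and a comparison of clusters is a different split of the family from a comparison of seeds. The hairpins Mir429, Mir200a and Mir200b lie at chr5:171929682-171931589 on the minus strand of GRCr8, a span of 1908 bases, and Mir141 and Mir200c at chr4:159209525-159210033 on the minus strand, a span of 509 bases.

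Each member was read by 2 array probes of 10 spots each, and the probes are complementary to the 3′ part of the miRNA and not to the whole seed. In the RefSeq hairpins below, the capitals mark the bases complementary to the longer probe, which show what the array measured:
Mir200b: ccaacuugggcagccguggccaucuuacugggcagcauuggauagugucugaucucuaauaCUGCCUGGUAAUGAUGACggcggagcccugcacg
Mir200a: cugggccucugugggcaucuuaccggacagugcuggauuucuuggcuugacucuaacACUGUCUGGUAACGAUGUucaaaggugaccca
Mir429: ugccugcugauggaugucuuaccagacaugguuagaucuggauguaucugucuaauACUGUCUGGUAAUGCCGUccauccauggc
Mir200c: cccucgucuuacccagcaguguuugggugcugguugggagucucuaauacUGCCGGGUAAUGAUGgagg
Mir141: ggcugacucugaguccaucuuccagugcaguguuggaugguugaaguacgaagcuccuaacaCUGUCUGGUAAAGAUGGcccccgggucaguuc

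The probe stretches of different members share letters. The longer probes of rno-miR-200a-3p and rno-miR-429, both 18 bases, share a run of 12, and those of rno-miR-200b-3p and rno-miR-200c-3p (18 and 15 bases) share a run of 10. Reading of a relative by a probe was not tested. The array design places the members' probes at chr5:172897242-172899076 and chr4:160840966-160841408 of the older build rn4.

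Between 250 and 328 miRNAs were called detected per array by the scanner software, and the tests cover the 262 miRNAs that at least 1 group had detected on each of its 5 arrays. Levels are log2 of the summed probe signal after division by each array's 75th percentile over the 231 miRNAs detected on all 20 arrays. No spot of a miRNA was saturated. The arrays lay on 3 slides. Slide 1 held the 5 AAI day 6 arrays with AAI day 4 arrays 3, 4 and 5. Slide 2 held the 5 AAI day 2 arrays with vehicle array 5 and AAI day 4 arrays 1 and 2, and slide 3 held vehicle arrays 1 to 4. Vehicle and AAI day 6 thus shared no slide. All 6 miRNAs fixed as marks of kidney epithelium were detected on all 20 arrays, and of the 4 muscle and 2 pancreas marks 0 were detected on all 20, though 2 muscle marks and 1 pancreas mark were detected on 1 to 5 arrays. Of the 2 brain marks, rno-miR-9a-5p was detected on all 20 arrays and rno-miR-124-3p on 3.

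The 5 guide strands were detected on all 20 arrays, and none of them passed the test in any comparison of the 4 groups. In the 5 miRNAs the log2 changes at day 6 lay between -0.23 and 0.15, and the 95% confidence bounds covered 0.730-fold to 1.63-fold. Against vehicle, 0 of 5 members passed at day 2, where 1.53% of all tested miRNAs did, 0 of 5 at day 4 (3.44% of all) and 0 of 5 at day 6 (26% of all). Between treated groups the count was 0 of 5 for day 4 against day 2 (0% of all tested), for day 6 against day 2 (11.1%) and for day 6 against day 4 (0.763%), and the F test over the 4 groups called 0 of 5 against 17.9% of all. The limma test with Benjamini-Hochberg adjustment over the 262 miRNAs gave these counts. At an unadjusted p under 0.05 the count was 1 of 5 at day 6 against vehicle (rno-miR-200b-3p) and 0 of 5 in the other 5 comparisons. The p-value of rno-miR-200b-3p ranked only 99 among the 262 tested miRNAs at day 6, so this count is no result about the family. At day 6 no member's treated arrays lay wholly outside the range of the vehicle arrays, while 23.3% of all tested miRNAs were so separated.

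**Figure D1:**
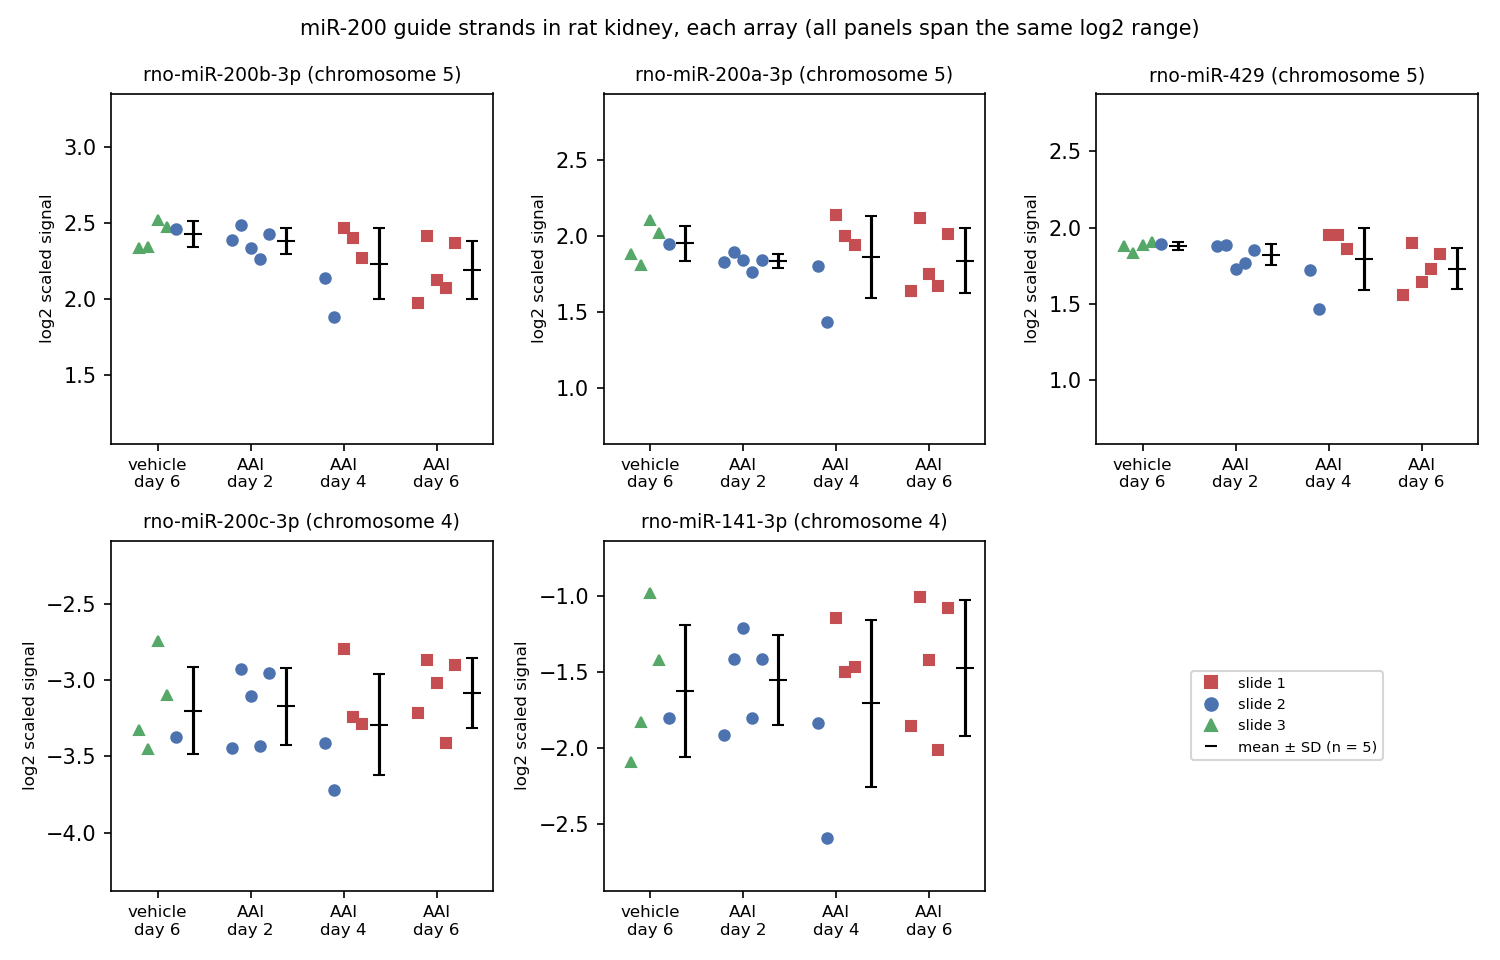
Log2 scaled signal (y axis) of the 5 guide strands on each array, by group (x axis), with marker and colour for the slide and mean ± SD of 5 arrays in black. The groups overlap for all 5 miRNAs, and AAI day 4 array 2 is the lowest of the 20 arrays for each of them.

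rno-miR-200b-3p, the first hairpin of the chromosome 5 transcript, had the lowest p-value of the members at day 6. In the vehicle arrays 1 to 5 its log2 level was 2.34, 2.34, 2.52, 2.47 and 2.46. In the AAI day 2 arrays it was 2.39, 2.49, 2.34, 2.26 and 2.42. These ranges overlap, and the AAI day 2 mean of 2.38 ± 0.08 (SD, n = 5) lay 1 SD or less from the vehicle mean of 2.43 ± 0.08. In the AAI day 4 arrays it was 2.14, 1.88, 2.47, 2.40 and 2.27, and in the AAI day 6 arrays 1.98, 2.41, 2.13, 2.07 and 2.37. At day 6, 3 arrays (1, 3 and 4) lay below the lowest vehicle array and arrays 2 and 5 lay inside the vehicle range. The change at day 6 was -0.23 ± 0.10 (SE), or 0.850-fold with a 95% interval of 0.730 to 0.990, and its adjusted p by limma was 0.102. The median change of all 262 tested miRNAs at day 6 was -0.11.

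rno-miR-200a-3p, which carries the other seed and follows rno-miR-200b-3p on the same transcript, had log2 levels of 1.88, 1.80, 2.10, 2.02 and 1.95 in the vehicle arrays. At AAI day 6 they were 1.64, 2.11, 1.75, 1.67 and 2.01. As for rno-miR-200b-3p, arrays 1, 3 and 4 were low and arrays 2 and 5 were not. The change at day 6 was -0.11 ± 0.12 (SE), adjusted p 0.472 by limma. At day 2 the mean was 1.83 ± 0.05 and at day 4 it was 1.86 ± 0.27, both SD with n = 5, beside 1.95 ± 0.12 in vehicle.

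rno-miR-429, the last hairpin of that transcript, has the seed of miR-200b and miR-200c. Its vehicle levels were the tightest of the family, from 1.83 to 1.91, while the AAI day 6 arrays ran from 1.56 to 1.90. The vehicle mean was 1.88 ± 0.03, and the means of AAI days 2, 4 and 6 were 1.82 ± 0.07, 1.79 ± 0.20 and 1.73 ± 0.14 (SD, n = 5 each). The change at day 6 was -0.15 ± 0.09 (SE), adjusted p 0.204 by limma.

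The miRNAs of the chromosome 4 transcript gave weaker signals and varied more between kidneys. rno-miR-200c-3p averaged -3.20 ± 0.29 in vehicle, against -3.17 ± 0.25, -3.29 ± 0.33 and -3.08 ± 0.23 on AAI days 2, 4 and 6 (log2 level, SD, n = 5). Its change at day 6 was 0.12 ± 0.17 (SE), adjusted p 0.628 by limma. rno-miR-141-3p averaged -1.62 ± 0.43 in vehicle, against -1.55 ± 0.30, -1.71 ± 0.55 and -1.47 ± 0.45 on AAI days 2, 4 and 6. Its change at day 6 was 0.15 ± 0.27 (SE), adjusted p 0.688 by limma. In vehicle alone rno-miR-141-3p ran from -2.09 to -0.98, a wider range than the distance between any 2 group means. For rno-miR-141-3p the 95% interval at day 6 ran from 0.755-fold to 1.63-fold, so a rise or fall of that size could not be seen with 5 arrays a group.

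The signs of these changes depended on how arrays were put on 1 scale. With no scaling the changes at day 6 were 0.14 for rno-miR-200b-3p, 0.26 for rno-miR-200a-3p and 0.22 for rno-miR-429, none passing the test, while the median of all tested miRNAs shifted by 0.37. Without scaling rno-miR-200c-3p had 0.49 and rno-miR-141-3p 0.52, which did not pass either (adjusted p 0.187 and 0.239 by limma).

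The order of the groups followed no course in time that the spread allowed. By mean level the order for rno-miR-200b-3p was vehicle, day 2, day 4, day 6, and for rno-miR-429 it was the same. For rno-miR-200c-3p and rno-miR-141-3p day 6 had the highest mean and day 4 the lowest. None of the neighbours in these orders differed past the test.

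The count of members that passed at day 6 depended on how the slide was fitted and on which arrays were kept. Within AAI day 4, arrays 1 and 2 on slide 2 had rno-miR-200b-3p at 2.14 and 1.88, and arrays 3, 4 and 5 on slide 1 had it at 2.27 to 2.47. All 5 guide strands had this split within day 4, with means on slide 2 and slide 1 of -2.21 and -1.37 for rno-miR-141-3p, for example. A fit with slide as a fixed block reaches the comparison of vehicle with AAI day 6 only through vehicle array 5 and the day 4 arrays on both slides. In that fit rno-miR-200b-3p fell by 0.64 on the log2 scale (SE 0.20, adjusted p 0.0266) and rno-miR-429 fell by 0.49 (SE 0.16, adjusted p 0.0293), so that 2 of 5 members passed in limma, beside 90 of all tested miRNAs. rno-miR-200a-3p had -0.52 with an adjusted p of 0.0792 in the same limma fit. Without AAI day 4 array 2 the fixed block gave -0.51 (adjusted p 0.144) and -0.36 (adjusted p 0.158) in limma for the 2 miRNAs. In that fit 0 of 5 members and 0 of all tested miRNAs passed. With slide as a random block rno-miR-200b-3p had -0.38 and an adjusted p of 0.0645 by limma. There 0 of 5 members passed, beside 60 of all tested miRNAs. With no slide term, rno-miR-200b-3p passed at day 6 when AAI day 4 array 2 was left out (-0.23, adjusted p 0.0455 by limma), beside 88 of all tested miRNAs. It also passed when AAI day 6 array 2 was left out (-0.29, adjusted p 0.0467 by limma), beside 84. Within a slide the comparison of vehicle with AAI day 6 has no value.

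**Figure D2:**
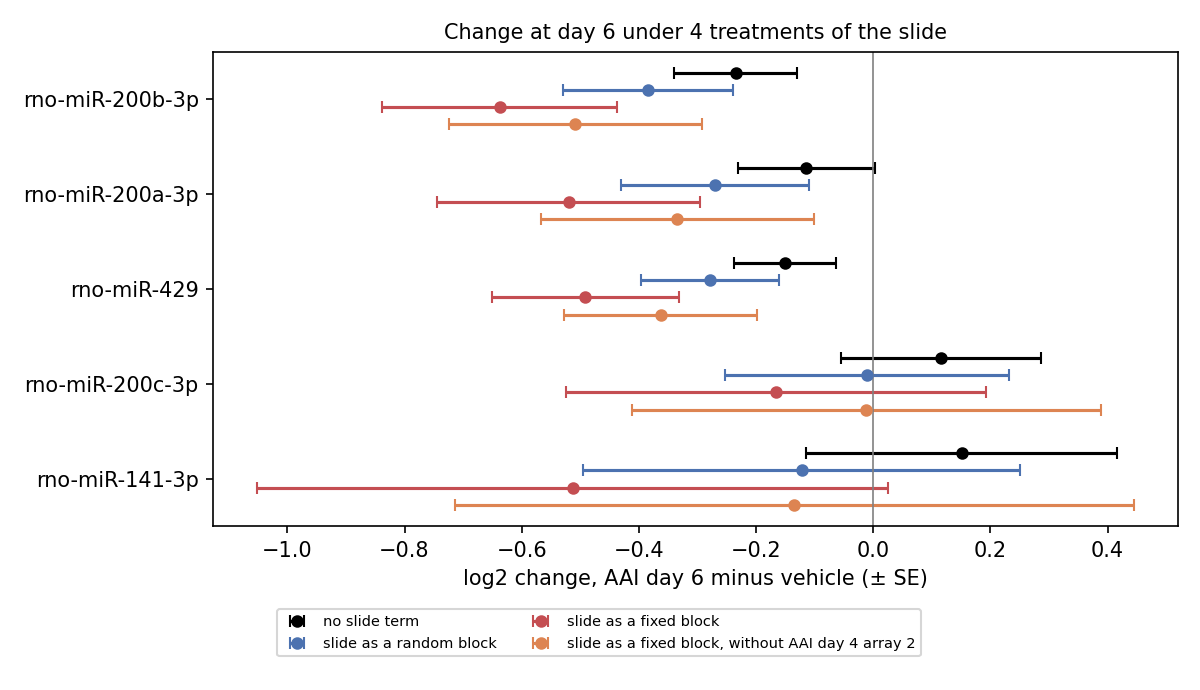
Log2 change at AAI day 6 minus vehicle (x axis, ± SE) of the 5 guide strands (y axis), fitted with no slide term, with slide as a random block, as a fixed block, and as a fixed block without AAI day 4 array 2. For rno-miR-200b-3p the values are -0.23, -0.38, -0.64 and -0.51. The chromosome 4 miRNAs change sign between these fits.

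Within slides the values were these. On slide 2, vehicle array 5 had rno-miR-200b-3p at 2.46, the 5 AAI day 2 arrays had it at 2.26 to 2.49, and AAI day 4 arrays 1 and 2 at 2.14 and 1.88. On slide 1 the AAI day 4 arrays lay at 2.27 to 2.47 and the AAI day 6 arrays at 1.98 to 2.41. A limma fit within a slide called 0 of 5 members for day 4 against day 2 and for day 6 against day 4. It called 0 of all tested miRNAs as well, so these counts are no result about the family. Vehicle had only 1 array on slide 2, so no count against vehicle within a slide is given.

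The number of miRNAs detected moved with the levels of the cluster on chromosome 5. AAI day 4 array 2, the lowest array for each guide strand, had the most detected miRNAs of all arrays, 328. At day 6 the low arrays 1, 3 and 4 had 304, 293 and 308 detected miRNAs, array 5 had 291 and array 2 had 250. In vehicle the numbers ran from 258 to 269. Over the 20 arrays Pearson's r between a level and the number detected was -0.76 for rno-miR-200b-3p and for rno-miR-429, -0.63 for rno-miR-200a-3p, -0.40 for rno-miR-141-3p and -0.28 for rno-miR-200c-3p, a description of arrays that share slides and groups. Its part in the results was not tested.

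To compare the clusters free of array scaling, the difference between members was taken within each array. A difference between 2 miRNAs also holds how well their probes bind, so its size has no meaning as a level and only its change between groups can be read. The mean of the 3 chromosome 5 guide strands minus that of the 2 chromosome 4 guide strands was 4.50 ± 0.29 in vehicle and 4.37 ± 0.25, 4.46 ± 0.21 and 4.20 ± 0.21 on AAI days 2, 4 and 6 (log2, SD, n = 5). From vehicle to day 6 it moved by -0.30. The day 6 arrays (4.05 to 4.53) lay inside the range of the vehicle arrays (4.03 to 4.74), and the change was not tested. Over 31 alternatives it ran from -0.42 to -0.035, and the groups overlapped in all of them.

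The difference between the seed groups moved less from vehicle to day 6 than that between the clusters. The mean of rno-miR-200b-3p, rno-miR-200c-3p and rno-miR-429 minus that of rno-miR-200a-3p and rno-miR-141-3p was 0.21 ± 0.15 in vehicle and 0.20 ± 0.12, 0.17 ± 0.17 and 0.10 ± 0.16 on AAI days 2, 4 and 6. The change from vehicle to day 6 was -0.11, less than the SD of either group, and the groups overlapped.

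Of the 10 pairs of guide strands, rno-miR-200b-3p and rno-miR-200a-3p, neighbours on the same transcript with different seeds, were the only pair whose difference did not overlap between vehicle and AAI day 6. The pair was singled out after its values were seen, and 1 of 10 pairs is below the 16.9% of all pairs of tested miRNAs that were separated in the same way, so it is no result about the family. The log2 difference of rno-miR-200b-3p minus rno-miR-200a-3p was 0.46, 0.53, 0.42, 0.46 and 0.51 in the vehicle arrays and 0.56, 0.59, 0.50, 0.50 and 0.58 in the AAI day 2 arrays. It was 0.34, 0.45, 0.33, 0.41 and 0.32 in the AAI day 4 arrays and 0.34, 0.30, 0.38, 0.40 and 0.36 in the AAI day 6 arrays. All AAI day 6 arrays were thus below all vehicle arrays, and all AAI day 4 and day 6 arrays below all AAI day 2 arrays. From vehicle to day 6 the mean moved by -0.12, which is a ratio 0.920 times that in vehicle, and from day 2 to day 4 by -0.18. For day 4 against day 2, 1 of 10 member pairs and 1.78% of all pairs were separated, and for day 6 against day 2, 1 of 10 and 8.74%. The count was 0 of 10 for day 2 against vehicle (7.46% of all pairs), day 4 against vehicle (8.81%) and day 6 against day 4 (1.46%). Vehicle and day 6 overlapped under quantile normalization and in the authors' deposited log2 table, and in that table day 6 and day 2 overlapped too. On slide 2 alone AAI day 2 (0.50 to 0.59) was above both AAI day 4 arrays (0.34 and 0.45), with vehicle array 5 at 0.51. Taken probe by probe, the change from vehicle to day 6 was between -0.13 and -0.11 for the 4 pairings of their probes, and 2 of the 4 pairings were separated without overlap.

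**Figure D3:**
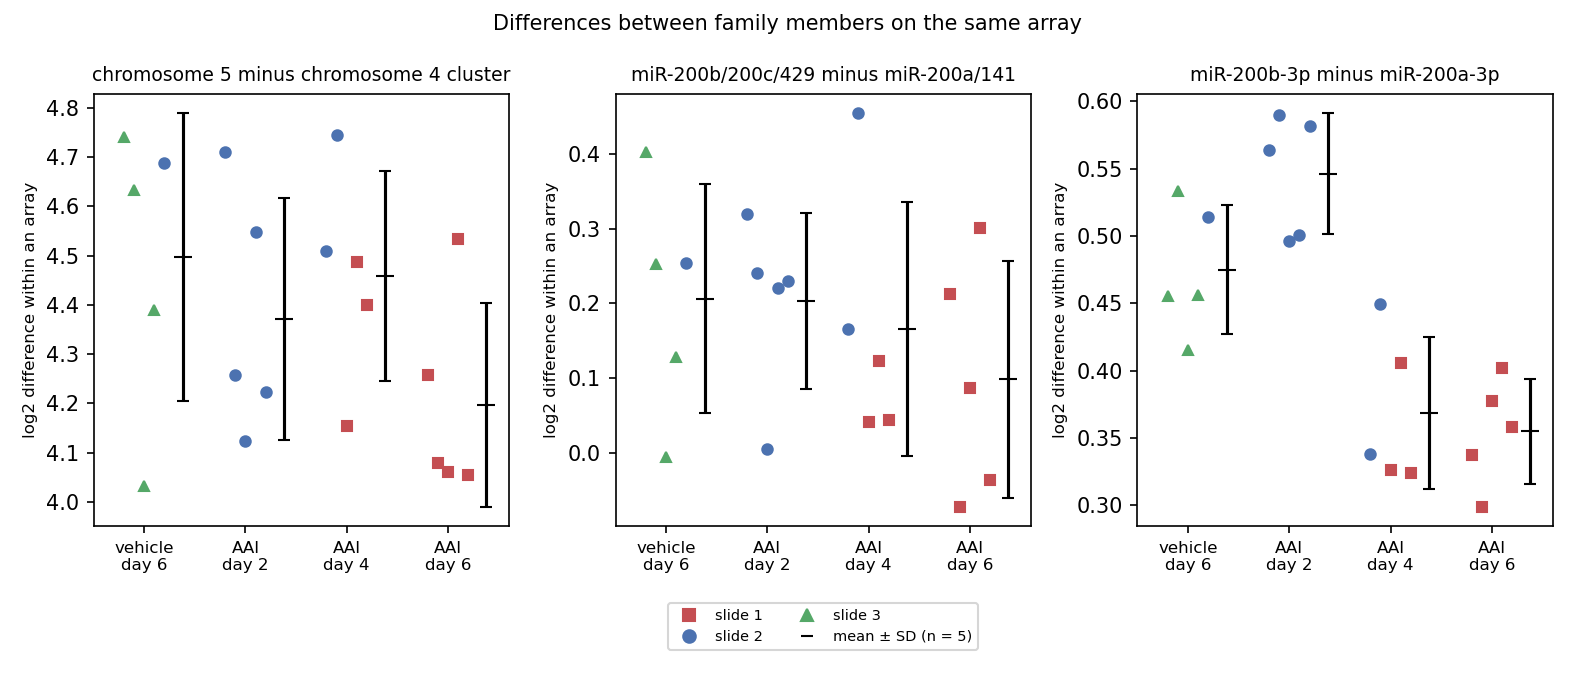
Log2 differences between family members on the same array (y axis) by group (x axis): chromosome 5 minus chromosome 4 cluster, the 2 seed groups, and rno-miR-200b-3p minus rno-miR-200a-3p, with markers for the slide and mean ± SD of 5 arrays. In the first 2 panels the groups overlap. In the third, day 6 lies at 0.30 to 0.40 and vehicle at 0.42 to 0.53.

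The members varied together from kidney to kidney. Over the 20 arrays, and with group means taken out, Pearson's r was 0.97 between rno-miR-200b-3p and rno-miR-200a-3p, 0.93 between rno-miR-200b-3p and rno-miR-429 and 0.91 between rno-miR-200c-3p and rno-miR-141-3p. With group means left in, these values were 0.87, 0.92 and 0.91. Across clusters, with group means taken out, r ran from 0.59 (rno-miR-429 with rno-miR-200c-3p) to 0.90 (rno-miR-200a-3p with rno-miR-141-3p). These values are a description of 20 arrays that share their scaling, slide and depth of detection.

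Outside the family, the miRNAs with the most similar levels over the 20 arrays, with group means left in, were the following. For rno-miR-200b-3p they were rno-let-7c-5p (r 0.96), rno-let-7b-5p (0.95) and rno-miR-30a-3p (0.93). For rno-miR-429 they were rno-miR-30c-5p (0.96), rno-miR-30a-3p (0.96) and rno-miR-30b-5p (0.92), and for rno-miR-200a-3p rno-miR-30a-5p (0.91), rno-miR-10a-5p (0.89) and rno-miR-30a-3p (0.88). The chromosome 4 miRNAs had other neighbours. rno-miR-200c-3p lay nearest to rno-miR-9a-5p (0.93), rno-miR-9a-3p (0.92) and rno-miR-31a-5p (0.88), and rno-miR-141-3p to rno-miR-19a-3p (0.91), rno-miR-19b-3p (0.91) and rno-miR-9a-5p (0.88).

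The passenger strand rno-miR-200a-5p was at the limit of the array. It was called detected on 0 of 5 vehicle arrays, 1 of 5 at AAI day 2, 2 of 5 at day 4 and 4 of 5 at day 6, and so was not among the 262 tested miRNAs. Its summed probe signal, an intensity before scaling, was 5.08, 6.31, 8.81, 8.24 and 5.90 in the vehicle arrays and 9.48, 9.43, 10.6, 6.32 and 10.1 at AAI day 2. At day 4 it was 10.7, 25.8, 13.6, 8.52 and 11.1, and at day 6 it was 9.72, 6.63, 22.5, 21.7 and 10.7. AAI day 4 array 2 and AAI day 6 arrays 3 and 4 stood above the rest. Before scaling, AAI day 2 array 4, AAI day 4 array 4 and AAI day 6 array 2 lay inside the vehicle range. On the scaled log2 level vehicle ran from -5.95 to -5.41. Inside that range lay AAI day 2 arrays 2 to 5, AAI day 4 arrays 4 and 5 and AAI day 6 arrays 1, 2 and 5. In vehicle, where it was not well above background, the level is only a bound. The mean scaled level at day 6 was 1.47-fold that of vehicle (SE 0.25 on the log2 scale), a ratio of means that takes in undetected arrays. When every miRNA detected on at least 1 array was tested (357 miRNAs), rno-miR-200a-5p passed at none of the 3 times, with adjusted p-values by limma of 0.933, 0.218 and 0.127 on AAI days 2, 4 and 6, beside 19.9% of the 357 that passed at day 6. The 7 arrays on which it was detected were the 7 with the most detected miRNAs (284 to 328, against 250 to 278 on the other 13), and the part of that in its detection was not tested. Its guide partner rno-miR-200a-3p was detected on all 20 arrays.

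**Figure D4:**
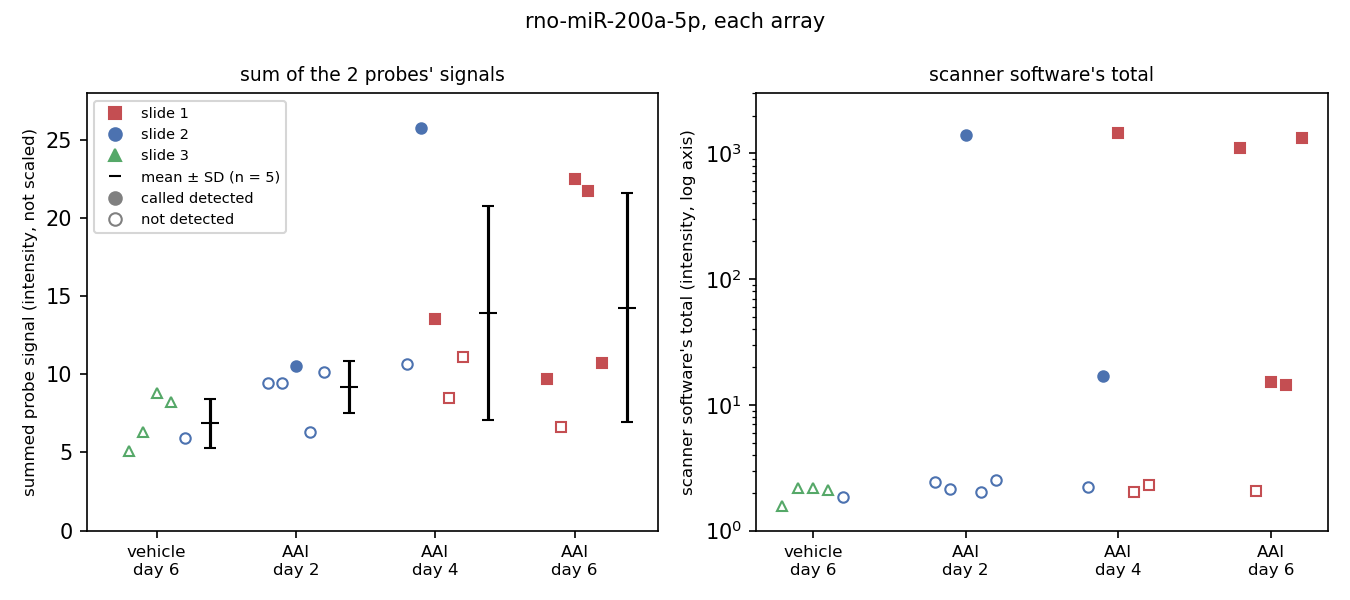
rno-miR-200a-5p on each array by group: left, the sum of its 2 probes' signals (intensity) with mean ± SD, and right, the total that the scanner software gives for it (intensity, log axis). Filled markers are arrays on which it was called detected. The totals lie at 1.58 to 2.54 where it was not detected, at 14.4 to 17.0 on 3 arrays and at 1111 to 1459 on 4 arrays.

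To set the family beside other miRNAs of the tubule, epithelial miRNAs outside it were counted, from a list of 17 of which 14 were tested. At day 6 against vehicle 5 of the 14 fell and 0 rose in limma, where 26% of all tested miRNAs passed. The median change of the 14 was -0.21 and that of all tested miRNAs -0.11. The lowest adjusted p-values were those of rno-miR-203a-3p, known as a miRNA of differentiating epithelium, with -0.57 ± 0.09 (SE, adjusted p 0.00028), and rno-miR-203b-3p with -0.66 ± 0.13 (adjusted p 0.00178). rno-miR-194-5p, abundant in renal tubule, fell by 0.63 (adjusted p 0.00226), and rno-miR-204-5p, also a tubule miRNA, fell by 0.42 (adjusted p 0.00365). The count differed between signals and scalings. With a 75th percentile taken over all miRNAs 5 fell, and with the median of detected miRNAs 3 fell. Without scaling, with spike-in scaling or with the software totals 0 of the 14 passed (lowest adjusted p 0.0918, 0.107 and 0.116 by limma). In the fixed slide fit without AAI day 4 array 2 the count was also 0 (lowest adjusted p 0.0603 by limma), where 0 of all tested miRNAs passed. With normexp background correction rno-miR-203b-3p had -0.26 (adjusted p 0.37) and rno-miR-204-5p -0.21 (adjusted p 0.45) in limma. With the fixed slide block their adjusted p-values were 0.0781 and 0.058. At day 2 and day 4 none of the 14 passed.

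Of the miRNAs listed for mesenchymal cells and TGF-beta signalling, 13 of 14 were tested. At day 6, 2 rose and 2 fell, with a median change of -0.07 beside -0.11 for all tested miRNAs. These 4 of 13 stand beside the 26% of all tested miRNAs that passed. rno-miR-21-5p, raised in many kidney injuries, rose by 1.11 ± 0.24 (SE, adjusted p 0.00285 by limma) and rno-miR-29b-3p, which represses collagen genes, rose by 0.44 (adjusted p 0.0129). rno-miR-181a-5p fell by 0.24 (adjusted p 0.0087) and rno-miR-214-3p fell by 0.25 (adjusted p 0.0298). In the fit with the fixed slide block, rno-miR-21-5p and rno-miR-29b-3p had changes of 0.60 and 0.14, which did not pass (adjusted p 0.422 and 0.707). Without scaling rno-miR-181a-5p and rno-miR-214-3p had 0.12 and 0.12, the opposite sign. None of the 13 passed at day 2 or day 4. The difference between the family and these lists was not tested.

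The summed level of the 6 kidney epithelium marks lay between 5.01 and 5.11 in vehicle and between 4.67 and 5.00 at day 6 on the log2 scale, all day 6 arrays being lower, and 4 of these 6 marks also stand in the epithelial list. The red cell marks lay between -1.30 and 0.42 in vehicle and between -4.01 and -2.31 at day 6. The 4 leukocyte marks on the array lay between 0.78 and 0.99 in vehicle and 0.45 and 1.04 at day 6, and the endothelial pair between 3.16 and 3.19 in vehicle and 2.80 and 3.13 at day 6. The red cell and endothelial sums were thus also lower on all day 6 arrays, and 23.3% of all tested miRNAs were separated at day 6. Without scaling the median change of all tested miRNAs at day 6 was 0.26, a shift of 0.37 from its value with scaling. The part of these marks in the levels of the miR-200 miRNAs was not tested. In whole kidney, fewer cells of a type and less RNA per cell cannot be told apart.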

How the data were processed

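The deposited files are the scanner output of 1-colour Agilent rat miRNA arrays, 1 per kidney. The scanner software was Feature Extraction 10.7.1.1, per the file headers, and its deposited spot values are an intensity, background-subtracted by the software, with flags for detection, outliers and saturation. The signals of unflagged spots were averaged per probe and summed per miRNA, divided by each array's 75th percentile over miRNAs detected on all arrays, floored at 0.0064 and taken to log2. Groups were compared in limma 3.58.1 (R 4.3.3) with 4 group means fitted to all 20 arrays and no covariate, eBayes, and Benjamini-Hochberg adjustment within each comparison at 0.05. The precision is limited by 5 arrays per group. The fit was tested on simulated data.

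The authors' deposited log2 table holds 740 entries per array. How it was normalized is not given in the sources used here. In each array's column 1 value stands for every undetected miRNA, and the table's medians per array run from -3.32 to -3.01. Over detected miRNAs it correlates with log2 of the summed probe signals at r 0.92 to 0.99. With log2 of the scanner software's totals it correlates at r 0.53 to 0.705. The deposited table served as an alternative, and its centring stays unknown.

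Alternatives changed the background correction, the scaling, the probe summary, the detection filter, the floor, the eBayes step, the slide and replicate blocks, the groups fitted and each array in turn. Their use on the 2 lists was chosen after seeing the data. The members, lists and tests were chosen with earlier results of these data known. Named miRNAs are the 6 members, for each tested member the 3 miRNAs with the highest r, and from each list the 4 with the lowest adjusted p at day 6 against vehicle. The mature and hairpin sequences are from RefSeq, GRCr8.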

Additional observations from a re-analysis of the deposited data

Results flagged for a closer look

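The total signal that the scanner software gives for rno-miR-200a-5p, which the report's comparisons do not use, reached 1458.79 on AAI day 4 array 3, while the 5 vehicle arrays lay between 1.58 and 2.18. On 11 of the 15 AAI arrays the total was above every vehicle array. On the 8 AAI arrays where it was not called detected the totals lay between 2.03 and 2.54, and on the 7 where it was they were 14.4 or more. On 4 of these 7 (AAI day 2 array 3, AAI day 4 array 3 and AAI day 6 arrays 1 and 5) it exceeded the total of the partner strand rno-miR-200a-3p by 4.67 to 5.87, though the 2 probes of rno-miR-200a-5p summed to 9.72 to 13.6 there. On AAI day 4 array 2 and AAI day 6 arrays 3 and 4 the totals were 17.0, 15.1 and 14.4. The total of rno-miR-200b-5p, the other passenger strand of that cluster, exceeded that of rno-miR-200b-3p by 12.7 to 31.9 on all 20 arrays. The deposited log2 table does not hold these totals: it gives rno-miR-200a-5p as -0.76, 2.08, -1.70 and 1.26 on the 4 arrays. Among 36 groups of 5 arrays examined (6 members and 3 within-array differences in 4 groups), 0 held an array whose gap to its nearest neighbour passed Dixon's critical value of 0.71.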

How the results depend on the processing

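The count of members called stayed at 0 under all alternatives for day 2 against vehicle, day 4 against vehicle, day 6 against day 4 and the F test. With slide as a fixed block it was 2 for day 6 against vehicle, beside 90 of all tested miRNAs. In that fit it was also 2 for day 6 against day 2, beside 95 of all tested miRNAs. It was 1 for day 4 against day 2, beside 34. Each count of members was 0 in the same fit without AAI day 4 array 2, where 0 of all tested miRNAs passed in these comparisons. Leaving out 1 array gave 0 to 1 for day 6 against vehicle. At day 6 against vehicle the sign turned as follows, with no value passing the test. With no scaling rno-miR-200b-3p had 0.14, rno-miR-200a-3p 0.26 and rno-miR-429 0.22. With the labelling spike-ins these had 0.021, 0.14 and 0.11, and with quantile normalization rno-miR-200a-3p had 0.087, rno-miR-429 0.050 and rno-miR-200c-3p -0.0044. The software totals gave 0.10 and 0.067 for rno-miR-200a-3p and rno-miR-429. The deposited table gave 0.091, 0.052 and -0.015 for rno-miR-200a-3p, rno-miR-429 and rno-miR-200c-3p, and normexp gave -0.035 for rno-miR-200c-3p. For rno-miR-200c-3p and rno-miR-141-3p the slide gave -0.17 and -0.51 as a fixed block, -0.011 and -0.12 as a random block, and -0.012 and -0.13 as a fixed block without AAI day 4 array 2. Over all 6 comparisons 27 of the 30 member changes turned sign under at least 1 alternative. The change in rno-miR-200b-3p minus rno-miR-200a-3p moved further from 0 with quantile normalization, to -0.24 for day 4 against vehicle, -0.19 for day 6 against vehicle and -0.27 for day 4 against day 2. In the deposited table the 3 changes were -0.25, -0.20 and -0.29, and day 6 against day 2 gave -0.23. In these 2 settings vehicle and day 6 overlapped, and in the other 29 they did not. Day 2 and day 6 overlapped in the deposited table and in none of the other 30. Most of these settings could not have made the groups overlap, so the counts do not measure how firm the separation is. Dividing an array by 1 number leaves a within-array difference unchanged, and leaving out an array cannot make separated groups overlap. The cluster difference at day 6 was -0.035 in the deposited table. For the lists at day 6 against vehicle, alternatives chosen after seeing the data moved the counts. Epithelial miRNAs lower numbered 3 with normexp and with the median of detected miRNAs, and 0 without scaling, with spike-ins, with software totals and with slide as a fixed block without AAI day 4 array 2. Mesenchymal miRNAs higher numbered 1 with the median and with a 75th percentile taken over all miRNAs, and 0 where slide was a fixed block (with and without that array) or a random block. Mesenchymal miRNAs lower numbered 0 without scaling, with the median, quantiles, spike-ins, software totals and the fixed block without that array. They numbered 1 with normexp, the brightest probe, the deposited table, the random block and only the 2 groups, and 1 to 2 with 1 array left out. The sign turned without scaling (rno-miR-181a-5p 0.12, rno-miR-214-3p 0.12), with spike-ins (0.010 and 0.0056) and with software totals (rno-miR-203b-3p 0.034). With software totals the SE of rno-miR-203b-3p was 0.31, beside 0.13 in the main fit. Of all tested miRNAs, 68 passed at day 6 against vehicle, and 0 to 90 did over the alternatives; the range was 0 to 9 at day 2, 0 to 19 at day 4, 0 to 34 for day 4 against day 2, 0 to 95 for day 6 against day 2, 0 to 8 for day 6 against day 4 and 0 to 71 in the F test. Relative to the main fit, the median change of all tested miRNAs at day 6 shifted by 0.37 without scaling, 0.26 with spike-ins and 0.16 with software totals. The cause was not tested. The replicate numbers do not pair the kidneys (mean r of deviations from -0.22 to 0.20 within a number), and the replicate block left 0 members called in all comparisons, with a lowest adjusted p of 0.13 by limma at day 6 against vehicle. No slide held both groups for day 6 against vehicle or against day 2, so these have no value within a slide. Signals of rno-miR-200a-5p at the detection limit and of the chromosome 4 miRNAs limit what 5 arrays show.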
